A study of Mus musculus with 4 samples.

Results

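The 9 genes described here, Cdkn1a, Mdm2, Phlda3, Ccng1, Trp53inp1, Bax, Sesn2, Bbc3 and Eda2r, are known transcriptional targets of p53, and they were chosen by symbol from the 32285 genes counted. Their UMIs (unique molecular identifiers, each a counted RNA molecule) were summed per library over cells of at least 1000 UMIs, at least 500 detected genes and at most 10% mitochondrial UMIs. Levels are given in CPM, a gene's UMIs per 1000000 UMIs of the same cell class and library. The libraries are single-cell 3′ RNA libraries (10x Genomics, v3.1 chemistry) made from the limb marrow of 12-day-old C57BL/6 mice. Live cells (DAPI negative, Calcein-AM positive) without the blood markers CD45 and Ter119 had been sorted. There were 2 control and 2 mutant libraries, and the labels name 3 control and 3 mutant mice without tying them to libraries. The p-values thus refer to a spread between libraries, part of which may be technical. In the genotype fits that spread was estimated mostly from other genes, since 4 libraries say little about the spread of a single gene. Mutant 1 is labelled Prx1-cre;Mettl3-fl/fl, and mutant 2 only "mutant". In such mice Cre recombinase, driven by the Prx1 enhancer, acts in limb mesenchyme, from which bone and stromal cells but not endothelial or blood cells descend. Mettl3 is the enzyme that places N6-methyladenosine marks on RNA. Whether the controls carried Cre or floxed alleles is not stated. Control 1 and mutant 1 are called batch 1 here and control 2 and mutant 2 batch 2, after the Cell Ranger versions in the submitters' processing notes.

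p53, encoded by Trp53, is a transcription factor that is held low by the ubiquitin ligase Mdm2 and accumulates after DNA damage, impaired ribosome production and other stresses. It then switches on genes for cell-cycle arrest, for apoptosis and for its own restraint, Mdm2 being the classical feedback target. In osteoblasts, the bone-forming cells, p53 activity is known to restrain growth and differentiation.

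The members lie at separate sites in the mouse genome (mm10, gene bounds from GENCODE M21), apart from Bax and Bbc3, which share chromosome 7, and Sesn2 and Trp53inp1, which share chromosome 4. Cdkn1a (ENSMUSG00000023067) spans 29090976 to 29100727 on the plus strand of chromosome 17, and Phlda3 (ENSMUSG00000041801) spans 135766119 to 135769136 on the plus strand of chromosome 1. Bax (ENSMUSG00000003873) spans 45461697 to 45466898 on the minus strand of chromosome 7, and Trp53inp1 (ENSMUSG00000028211) spans 11156431 to 11174379 on the plus strand of chromosome 4.

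Promoter sequences of 8 of the 9 members, all but Trp53inp1, were matched by symbol to RefSeq windows on mm10 (GRCm38.p6) of 250 bases before to 50 after a transcription start. A script searched them for the p53 consensus: the half-site has 10 bases, and the full site is a pair of half-sites without a spacer, with at most 1 base off the consensus and the C and G at each core kept. The consensus is its own reverse complement, so that a match on either strand is found, and a full site overlaps the half-sites within it. A full site stood in the windows of Cdkn1a and Ccng1, against 0.067% (22) of all 32851 windows. An exact half-site stood in Cdkn1a, Ccng1, Mdm2 and Bax, against 8.36% of all windows. No match was found in the windows of Phlda3, Sesn2, Bbc3 and Eda2r, and bases outside the windows were not searched. Cdkn1a had 2 windows, not both with matches, and Bbc3 had 3, while the shares count single windows. A match is a description of letters and not a site shown to be bound. The stretches printed here are those that hold the matches, with the bases before the start of Phlda3, the member with the largest called difference, for comparison; each runs 5′ to 3′ on the gene's strand, and capitals mark full sites and exact half-sites.
Cdkn1a, chr17:29090889-29090978 (plus): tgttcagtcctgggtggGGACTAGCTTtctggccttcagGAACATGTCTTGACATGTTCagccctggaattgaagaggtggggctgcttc
Ccng1, chr11:40755422-40755511 (minus): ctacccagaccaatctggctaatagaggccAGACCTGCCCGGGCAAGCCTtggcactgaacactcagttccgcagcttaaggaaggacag
Mdm2, chr10:117710894-117710983 (minus): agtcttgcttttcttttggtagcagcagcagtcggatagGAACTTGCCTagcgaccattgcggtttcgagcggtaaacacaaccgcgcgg
Bax, chr7:45467049-45467138 (minus): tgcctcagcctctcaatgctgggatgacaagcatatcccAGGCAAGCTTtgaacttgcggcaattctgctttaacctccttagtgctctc
Phlda3, chr1:135765935-135766084 (plus): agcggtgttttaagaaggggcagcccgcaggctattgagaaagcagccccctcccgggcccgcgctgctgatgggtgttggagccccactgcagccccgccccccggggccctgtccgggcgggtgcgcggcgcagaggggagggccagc
The Cdkn1a full site begins 51 bases before the start and the Ccng1 site 195 bases before it, and the half-sites of Mdm2 and Bax begin 186 and 201 bases before it.

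Cells were assigned to classes by marker genes, and cells that met the criteria of several classes were left out. Control 1, control 2, mutant 1 and mutant 2, the order used for all values by library, held 303, 47, 1987 and 1280 bone-lineage cells (marked by Col1a1, Ibsp, Sp7, Runx2 and others). They held 942, 44, 10 and 9 stromal cells (Cxcl12, Lepr, Adipoq), 29, 546, 46 and 864 endothelial cells (Cdh5, Pecam1, Kdr) and 3709, 2646, 87 and 879 erythroid cells (Klf1, Car1 and other non-globin genes), the last present although the sort selected against Ter119. Control 2 thus rests on few bone cells, the mutants on few stromal cells, and control 1 and mutant 1 on few endothelial cells. Libraries shared 2 to 10 barcodes per pair. The file of mutant 1 held called cells only, so RNA outside cells could not be measured in it.

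The targeted gene itself, Mettl3, stood at 7.26, 9.93, 3.97 and 6.01 CPM in bone cells, from 48, 11, 161 and 156 UMIs. Its log2 difference of -0.93 ± 0.36 (SE, 2 libraries per genotype) missed the threshold in edgeR's quasi-likelihood test with Benjamini-Hochberg adjustment over all tested genes (adjusted p = 0.0506). Which exons were deleted is not stated, so 3′ tags may still come from a recombined allele and this level may check nothing.

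In bone-lineage cells, 3 of the 9 p53 targets were higher in the mutants: Phlda3, Bax and Trp53inp1. None of the 9 was lower. The other 6, Cdkn1a and Mdm2 among them, did not pass the test. Of the 12960 genes tested, 22.7% were called in either direction and 12.7% were called higher, so that 3 of 9 members stands against a background of about 1 gene in 8. The members' median log2 difference was 0.76, against 0.03 for all tested genes. Since the members were chosen with earlier results of these data known, these contrasts are descriptions.

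Among the members that act on survival and death, Phlda3 showed the largest called difference. Phlda3 encodes a small pleckstrin-homology protein that competes with Akt for membrane lipids and so dampens survival signalling. Control bone cells held 50.7 CPM (control 1) and 31.6 CPM (control 2) of it, and mutant bone cells 139 CPM (mutant 1) and 153 CPM (mutant 2). Both mutants thus lay far above both controls, 2.74-fold within batch 1 and 4.83-fold within batch 2. The log2 difference was 1.67 ± 0.22 (adjusted p = 1.5e-09, edgeR). Without the batch term it was 1.62 (adjusted p = 0.0074), and leaving out control 1 (2.18, adjusted p = 0.0565) or control 2 (1.34, adjusted p = 0.0549) ended the call. Fits without a library have no batch term, and the lone library of a genotype is assumed to vary like the other group.

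Bax, the pore-forming protein of mitochondrial apoptosis, stood at 98.7 and 76.8 CPM in control bone cells and at 170.5 and 190.2 CPM in mutant ones. The groups did not overlap, and the log2 difference was 0.91 ± 0.20 (adjusted p = 0.00032, edgeR). The call was lost without the batch term (adjusted p = 0.0561) and when any library was left out (adjusted p = 0.0584 to 0.22), while the difference itself ranged from 0.68 to 1.21 over these fits.

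Bbc3 encodes PUMA, the BH3-only protein that frees Bax to act. Controls held 11.2 and 15.4 CPM and mutants 18.0 and 21.2 CPM, a log2 difference of 0.49 ± 0.26 that did not pass (adjusted p = 0.169, edgeR). Eda2r, a receptor of the tumour necrosis factor family for ectodysplasin A2, was close to absent: 2 and 0 UMIs in controls and 32 and 64 UMIs in mutants. Over pooled libraries its level was 5.57 times higher in mutants, with a 95% counting interval of 1.5 to 46.7, and the test over libraries did not pass (log2 difference 1.92 ± 1.09, adjusted p = 0.212, edgeR).

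Trp53inp1, which encodes a nuclear protein that enhances p53 activity, was higher in mutant bone cells. Controls held 10.3 and 19.9 CPM and mutants 22.0 and 28.3 CPM. Control 2 lay close below mutant 1, and the log2 difference was 0.76 ± 0.25 (adjusted p = 0.0177, edgeR). This call was lost with DESeq2 (adjusted p = 0.305), after doublet removal (adjusted p = 0.0503), at a mitochondrial limit of 5% (adjusted p = 0.062), without the batch term and without any 1 library.

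The arrest genes and the feedback gene gave no call. Cdkn1a, which encodes the cyclin-dependent kinase inhibitor p21, stood at 227 and 219 CPM in control bone cells and at 286 and 354 CPM in mutant ones. The mutants lay above the controls by 1.26-fold in batch 1 and 1.62-fold in batch 2, and the log2 difference of 0.39 ± 0.19 did not pass (adjusted p = 0.129, edgeR). Ccng1, the cyclin G1 gene, overlapped between genotypes, with 31.3 and 25.3 CPM in the control and 29.9 and 50.8 CPM in the mutant libraries (0.24 ± 0.23, adjusted p = 0.51, edgeR). Mdm2 overlapped as well, with control values of 24.7 and 30.7 CPM and mutant values of 22.1 and 33.9 CPM. Its log2 difference was -0.15 ± 0.22 (adjusted p = 0.685, edgeR), and it was 0.12 without mutant 1. Sesn2, the sestrin that restrains mTORC1, gave 5.75 and 3.61 CPM in the control and 8.51 and 13.6 CPM in the mutant libraries (0.80 ± 0.34, adjusted p = 0.0761, edgeR). It passed with total UMIs as scaling (adjusted p = 0.0345) and with stricter marker thresholds (adjusted p = 0.0376).

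**Figure D1:**
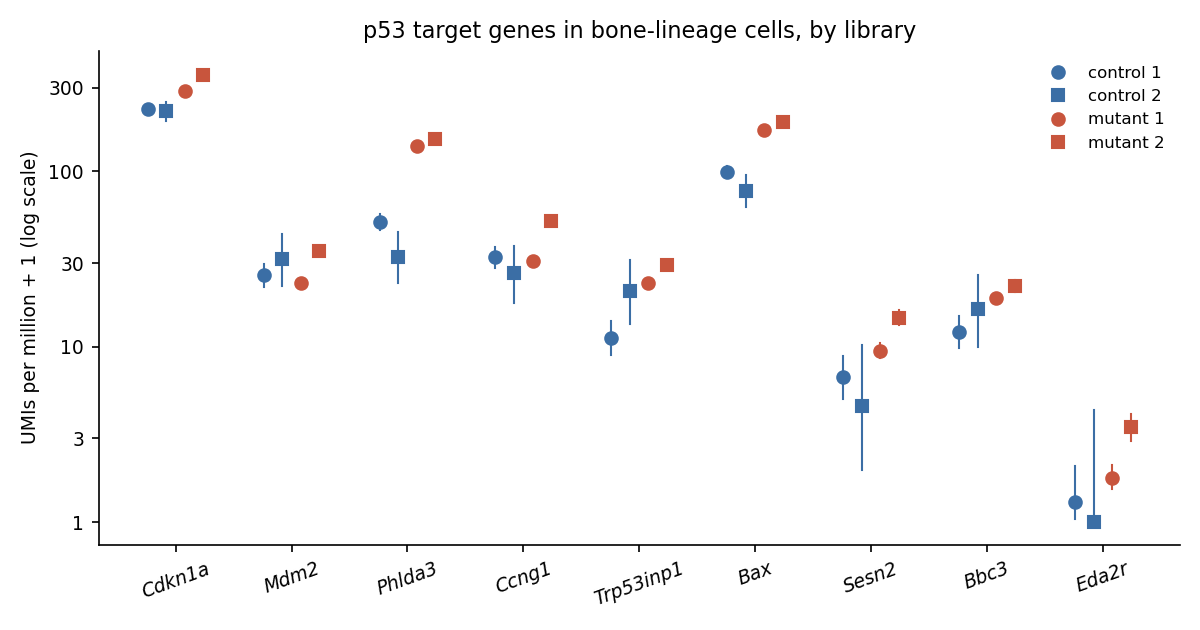
Level of each p53 target gene in bone-lineage cells, in CPM plus 1 on a log axis, with 1 point per library (blue controls, red mutants; circles batch 1, squares batch 2) and exact Poisson 95% intervals that cover counting error only. Phlda3 and Bax show the widest gap, with mutants at 139 and 153 CPM against 50.7 and 31.6 CPM for Phlda3, while Mdm2 and Ccng1 overlap.

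Both mutants lay above both controls for 7 of the 9 members in CPM, and the other 2, Mdm2 and Ccng1, overlapped. This order held for 36.0% of all tested genes, and the reverse order, which no member showed, for 17.7%. Among the 7, Eda2r rested on 2 UMIs over both controls, so its order is uncertain. Using total UMIs as scaling instead of TMM moved the median of all genes by 0.11 on the log2 scale, and the direction of each member was the same under both. The make-up of the bone class moved with genotype: progenitor-like cells (Postn, Tnc, Col12a1) made up 17.8% and 10.6% of bone cells in controls and 37.7% and 22.3% in mutants, and osteocyte-like cells (Dmp1, Mepe, Phex) 4.62% and 6.38% against 13.9% and 16.8%. Mature osteoblasts (Bglap, Car3, Ifitm5) made up 24.1% and 57.4% of bone cells in controls and 8.45% and 18.0% in mutants. The remaining bone cells made up 53.5% and 25.5% against 39.9% and 42.9%. Chondrocyte markers in the bone class summed to 1206 and 1252 CPM in the control and 151 and 223 CPM in the mutant libraries. Fibroblast or tendon markers summed to 3221 and 3834 CPM in controls against 631 and 1102 CPM in mutants, and erythroid markers to 588 and 763 CPM against 133 and 954 CPM. Their part in the class-wide differences was not tested.

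Levels were also read within the subtypes. Mature osteoblasts (Bglap, Car3, Ifitm5) were the only subtype with at least 20 cells in every library, 73, 27, 168 and 230 of them, and there Phlda3 was again higher in the mutants. Control mature osteoblasts held 44.6 and 28.3 CPM and mutant ones 73.7 and 90.8 CPM, a log2 difference of 1.13 ± 0.26 (adjusted p = 0.012, edgeR). It was the single member called of 8 tested, against 12% of the 9715 genes tested there, and it did not pass with DESeq2 (adjusted p = 0.0727). Without control 2 it was 0.76 (adjusted p = 0.18), and it also missed the threshold without mutant 1 (1.12, adjusted p = 0.053) and without mutant 2 (1.10, adjusted p = 0.0583).

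Bax stood at 93.8 and 72.7 CPM in control and 125 and 144 CPM in mutant mature osteoblasts, just short of the threshold (0.70 ± 0.21, adjusted p = 0.0501, edgeR). Cdkn1a stood at 207 and 151 CPM against 238 and 352 CPM (0.71 ± 0.23, adjusted p = 0.0633, edgeR), and Sesn2 rested on 3, 4, 33 and 71 UMIs (1.62 ± 0.52, adjusted p = 0.0607, edgeR). All 3 passed under DESeq2 size factors, without the low-count filter, at the 5% mitochondrial limit and after doublet removal. Trp53inp1, called over all bone cells, stood at 14.9 and 16.2 CPM in control and 12.3 and 21.6 CPM in mutant mature osteoblasts, where the groups overlapped (0.06 ± 0.32). For 4 of the 8 members both mutants lay above both controls, as for 25% of tested genes. No member showed the reverse, as 21.6% of tested genes did.

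In the other subtypes a control library held too few cells for a test. Among osteocyte-like cells Phlda3 stood at 15.7 CPM from 4 UMIs in control 1, against 77.2 and 126 CPM in mutants. In control 2 it was at 0 of 60296 UMIs in 3 cells, where 3 UMIs would give 49.8 CPM. Cdkn1a did not separate the genotypes there, with 294 CPM (75 UMIs) and 995 CPM (60 UMIs) in controls and 708 and 646 CPM in mutants, a mutant-to-control ratio of 2.40 in batch 1 and 0.649 in batch 2. In progenitor-like cells Phlda3 stood at 102 CPM in control 1 and at 178 CPM, from 7 UMIs in 5 cells, in control 2, against 202 and 203 CPM. In the remaining bone cells Phlda3 stood at 45.4 and 26.4 CPM against 119 and 164 CPM. For Trp53inp1 the mutant-to-control ratio in progenitor-like cells was 1.01 in batch 1 and 0.463 in batch 2, where control 2 held 5 cells. It was 3.43 and 1.95 in osteocyte-like cells, from 6 control UMIs, and 3.30 and 1.04 in the remaining bone cells. Mutant-to-control ratios of Bax in batches 1 and 2 were 1.67 and 1.57 in osteocyte-like cells and 1.48 and 1.58 in progenitor-like cells. In the remaining bone cells they were 1.71 and 2.62. Phlda3 and Bax were higher in both mutants than in both controls in each of the 4 subtypes, as the plot by subtype shows. Several control values rest on under 10 UMIs. Both genes were already called in the bone class, of which the subtypes are parts, so this order is not separate support. Among subtypes, the share of all genes with this order was counted in mature osteoblasts only.

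**Figure D2:**
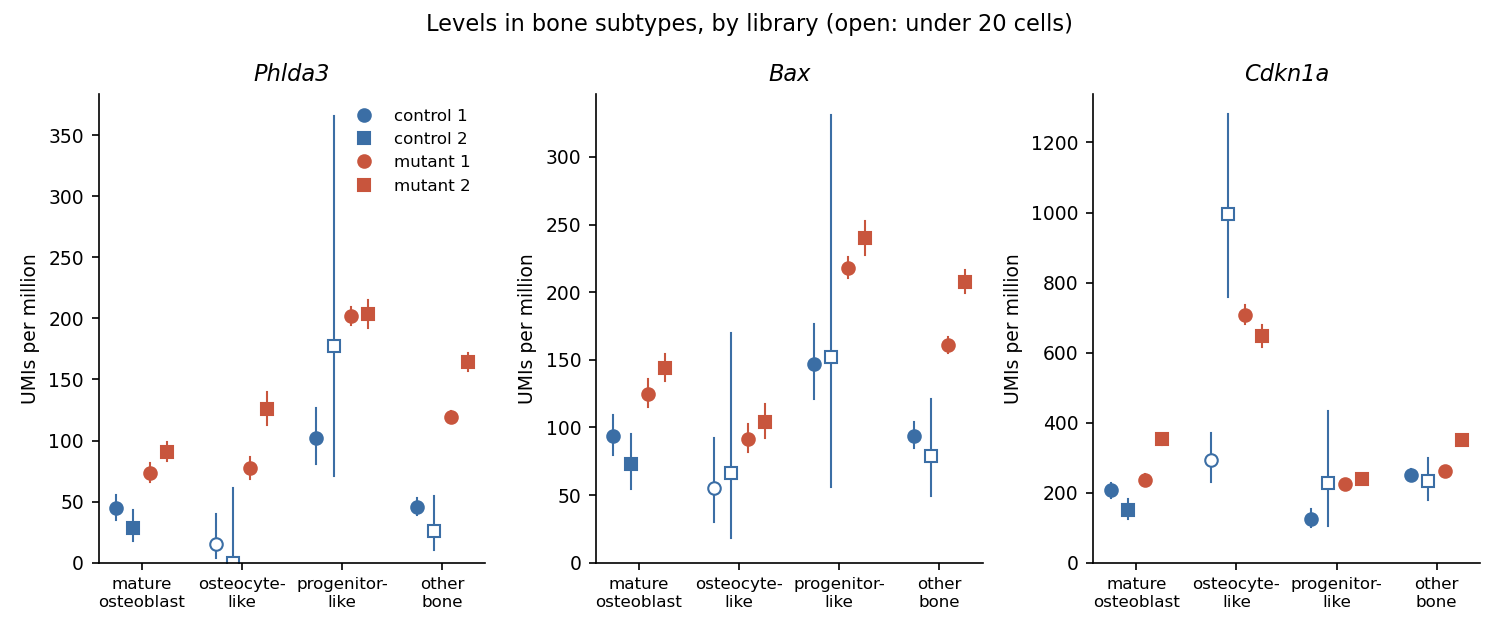
Phlda3, Bax and Cdkn1a in 4 bone subtypes, in CPM with exact Poisson 95% intervals (counting error only), 1 point per library; open points rest on under 20 cells. Phlda3 and Bax lie higher in the mutants within each subtype, and Cdkn1a is at its highest in osteocyte-like cells, at 294 and 995 CPM in the controls and 708 and 646 CPM in the mutants.

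The subtypes themselves differed in the members they carried. Compared within the 2 mutant libraries, which alone held enough of both cell types, osteocyte-like cells held more Bbc3, Trp53inp1, Cdkn1a and Mdm2 and less Bax and Ccng1 than mature osteoblasts. Bbc3 stood at 48.0 and 49.9 CPM in osteocyte-like cells of mutants 1 and 2, against 8.99 and 11.9 CPM in mature osteoblasts (log2 difference 1.99 ± 0.18, adjusted p = 4.45e-08, edgeR). Cdkn1a stood at 708 and 646 CPM against 238 and 352 CPM (0.99 ± 0.13, adjusted p = 5.42e-06, edgeR). Trp53inp1 differed by 1.59 ± 0.16, Mdm2 by 0.53 ± 0.17, Bax by -0.69 ± 0.12 and Ccng1 by -0.58 ± 0.16. These 6 of 8 tested members stand against 44.8% of all genes called in that comparison. With total UMIs as scaling the median of all genes moved from 0.01 to 0.25, these members kept their directions, and Ccng1 no longer passed (adjusted p = 0.0744). DESeq2 did not call Mdm2 (adjusted p = 0.411) or Ccng1 (adjusted p = 0.241).

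Osteocyte-like cells also differed from progenitor-like cells in the same 2 libraries, in 5 of 8 members against 43.2% of all genes. Cdkn1a (1.89 ± 0.12), Bbc3 (1.67 ± 0.15) and Trp53inp1 (1.39 ± 0.15) were higher, and Bax (-0.88 ± 0.11) and Phlda3 (-0.70 ± 0.16) were lower in osteocyte-like cells. Progenitor-like cells held less Cdkn1a than mature osteoblasts (-1.12 ± 0.17, adjusted p = 0.00144, edgeR, 3 libraries) and more Phlda3 (0.61 ± 0.14, adjusted p = 0.011). That is 2 of 8 members against 31.8% of all genes. The Phlda3 call was lost without mutant 1 (0.49, adjusted p = 0.174) and without mutant 2 (0.61, adjusted p = 0.0714). With total UMIs as scaling, which moved the median of all genes by 0.66, 7 members were called, and Mdm2 and Ccng1 turned to higher in progenitor-like cells.

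Endothelial and erythroid cells, which do not descend from the Prx1 lineage, gave 1 call each. In endothelial cells Phlda3 was the single member called of 8 tested, against 5.14% of the 10664 genes tested, and Eda2r was too low to test. Endothelial cells held 23.9 CPM (4 UMIs) in control 1, 37.6 CPM in control 2, 117 CPM (34 UMIs) in mutant 1 and 59.0 CPM in mutant 2. Control 1 and mutant 1 rest on few UMIs, and the log2 difference was 0.90 ± 0.27 (adjusted p = 0.0186, edgeR, in a fit that gave all genes of like abundance the same spread). The call was lost with DESeq2 (adjusted p = 0.992), without the batch term (adjusted p = 0.415) and without control 1, control 2 or mutant 1. In barcodes of 10 to 100 UMIs, which sample RNA outside cells, Phlda3 stood at 13.8 CPM in control 1, 11.2 CPM in control 2 and 105 CPM in mutant 2, above its level in mutant 2 endothelial cells. The part of that RNA in the endothelial value was not tested.

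The other endothelial members were not called, and 6 of the 8 had log2 differences below 0. Cdkn1a stood at 101, 80.7, 85.9 and 49.1 CPM (-0.61 ± 0.25, adjusted p = 0.198, edgeR). Bax overlapped, at 161, 197, 141 and 178 CPM (-0.17 ± 0.21). Both mutants lay above both controls for 2 members, Phlda3 and Bbc3, as for 18.8% of tested genes. They lay below both controls for 2, Mdm2 and Sesn2, as for 17.7%. Sesn2 was at 0 of 291131 UMIs in mutant 1, where 3 UMIs would give 10.3 CPM, so its order is uncertain.

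In erythroid cells Bbc3 was the single member called of 9, against 4.68% of the 12563 genes tested. Controls held 9.61 and 7.82 CPM and mutants 19.1 CPM (26 UMIs) and 14.3 CPM, a log2 difference of 1.15 ± 0.25 (adjusted p = 0.00423, edgeR). The call was lost with total UMIs as scaling (0.92, adjusted p = 0.0652), which moved the median of all genes by -0.22, without the batch term (1.07, adjusted p = 0.363) and without control 2, mutant 1 or mutant 2. Summed erythroid markers stood at 52408 and 42226 CPM in controls against 274934 and 135697 CPM in mutants, and bone markers at 104 and 26.7 CPM against 478 and 662 CPM; their part in the result was not tested. Phlda3, at 7.15, 6.85, 2.93 and 4.60 CPM, was lower in both mutants but not called (-0.56 ± 0.35, adjusted p = 0.555, edgeR). Bax stood at 155, 160.5, 98.3 and 127 CPM (-0.24 ± 0.13) and Ccng1 at 32.4, 43.9, 16.9 and 28 CPM (-0.53 ± 0.17, adjusted p = 0.0822), the latter passing without the low-count filter and with total UMIs as scaling. The mutants lay above the controls for 3 members and below them for 4, as 10.7% and 30.2% of tested genes did.

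**Figure D3:**
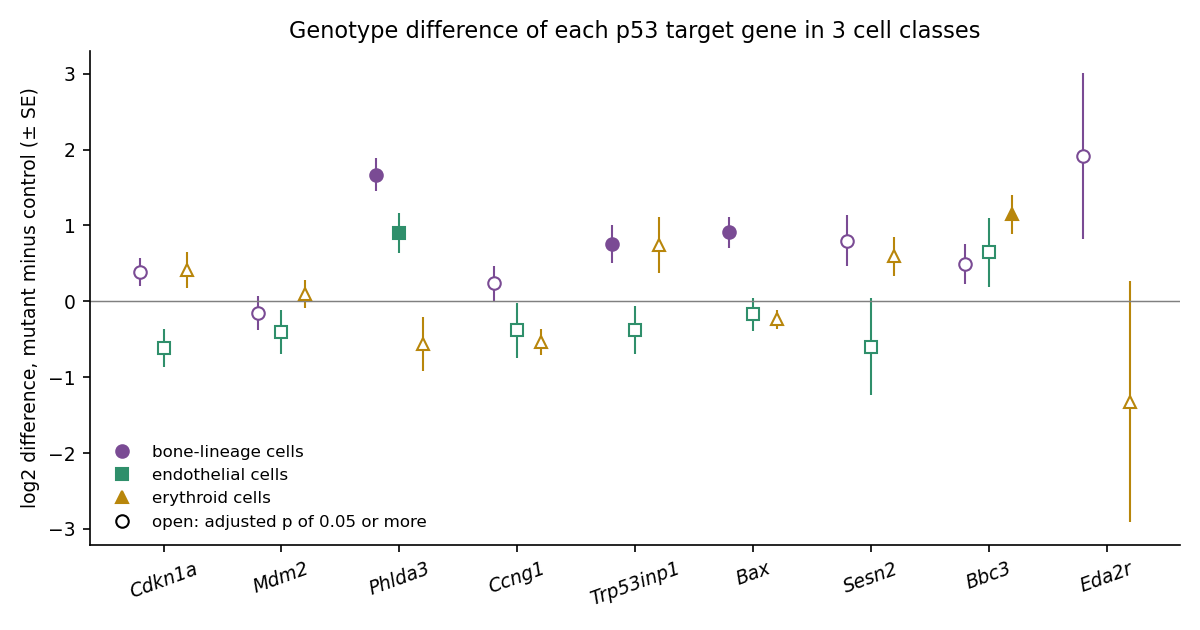
Log2 difference between mutant and control for each p53 target gene, with its standard error, in bone-lineage, endothelial and erythroid cells; filled points have an adjusted p under 0.05. Phlda3 and Bax lie above 0 in bone cells (1.67 and 0.91) and below 0 in erythroid cells (-0.56 and -0.24), and Eda2r was not tested in endothelial cells.

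The difference between these differences was tested as the interaction of class and genotype. Between bone and erythroid cells it passed for 2 of the 9 members, against 6.74% of all genes: Phlda3, by 2.51 ± 0.48 (adjusted p = 1.61e-05, edgeR), and Bax, by 1.45 ± 0.43 (adjusted p = 0.0154). The median of all genes in this fit was 0.24. Both interaction fits gave all genes of like abundance the same spread. The Bax call was lost under DESeq2 size factors (1.08, adjusted p = 0.069), with stricter marker thresholds (1.40, adjusted p = 0.0656) and without control 1, mutant 1 or mutant 2, and the Phlda3 call without mutant 1 (2.42, adjusted p = 0.0556). Between bone and endothelial cells none of the 9 passed, against 3.53% of 12893 genes. At an unadjusted p under 0.05 there were 4 (Cdkn1a, Bax, Sesn2 and Eda2r), against 13% of all genes, and DESeq2 called none. For Phlda3 the difference was 0.64 ± 0.43 (adjusted p = 0.586), so a larger rise in bone than in endothelial cells was not shown. For Bax it was 1.07 ± 0.38 (adjusted p = 0.0998), which passed with total UMIs as scaling (1.25, adjusted p = 0.0235).

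Across cell classes the members did not share a common order. Cdkn1a was highest in bone cells (219 to 354 CPM), lower in endothelial cells (49.1 to 101 CPM) and lowest in erythroid cells (9.93 to 15.1 CPM), and the ranges of the 3 classes did not overlap. Each step passed edgeR: 2.61 ± 0.25 between bone and endothelial cells (adjusted p = 1.87e-05) and 1.57 ± 0.26 between endothelial and erythroid cells (adjusted p = 0.000231). Phlda3 had the same order, with 1.38 ± 0.41 (adjusted p = 0.018) and 2.06 ± 0.44 (adjusted p = 0.00151), although its bone and endothelial ranges overlapped (31.6 to 153 and 23.9 to 117 CPM). Trp53inp1 was higher in bone (10.3 to 28.3 CPM) and endothelial cells (17.9 to 42.7 CPM) than in erythroid cells (3.90 to 8.07 CPM), and the difference between bone and endothelial cells did not pass (0.14 ± 0.27).

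Ccng1 behaved otherwise: endothelial cells (11.9 to 27.8 CPM) held less than bone cells (25.3 to 50.8 CPM) and than erythroid cells (16.9 to 43.9 CPM), and the difference between bone and erythroid cells did not pass (0.02 ± 0.23). Bax and Sesn2 were lower in endothelial than in erythroid cells (-0.67 ± 0.26 and -1.36 ± 0.44). The Bax call was lost in each fit without a library. Mdm2, Bbc3 and Eda2r gave no call in any of the 3 comparisons. In all, 3 of 9 members were called between bone and endothelial cells, 3 between bone and erythroid cells and 6 between endothelial and erythroid cells, against 47.6%, 72.3% and 70.7% of all genes. Between classes the scaling matters: with total UMIs in place of TMM the median of all genes moved by -0.71, 0.21 and 0.92. Cdkn1a kept every call, as did Phlda3 and Trp53inp1 against erythroid cells; Phlda3 (0.63, adjusted p = 0.273) and Ccng1 (0.77, adjusted p = 0.0688) no longer passed between bone and endothelial cells, and Ccng1, Bax and Sesn2 between endothelial and erythroid cells were lost, with Bax turning to 0.32 and Mdm2 passing at 0.60. Without mutant 2 the Phlda3 difference between bone and endothelial cells did not pass (1.11, adjusted p = 0.0755).

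**Figure D4:**
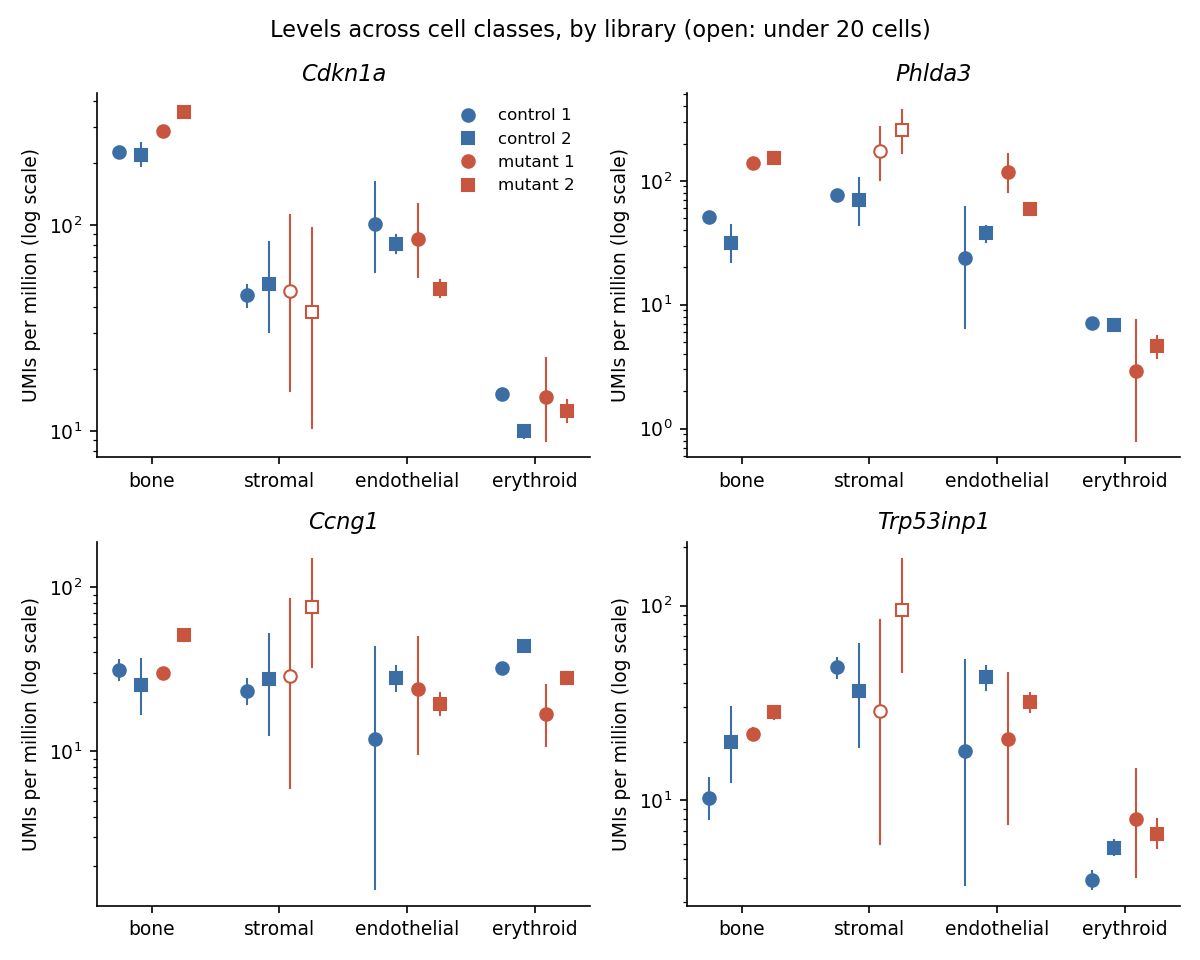
Cdkn1a, Phlda3, Ccng1 and Trp53inp1 in bone, stromal, endothelial and erythroid cells, in CPM on a log axis with exact Poisson 95% intervals (counting error only), 1 point per library; open points rest on under 20 cells. Cdkn1a is highest in bone cells (219 to 354 CPM) and lowest in erythroid cells (9.93 to 15.1 CPM). Its stromal and endothelial levels lie between these and overlap each other, while Ccng1 spans similar ranges in bone and erythroid cells.

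Stromal cells, the niche cells that share their origin with bone cells, were numerous enough only in the controls. There Cdkn1a was far lower in stromal than in bone cells, at 45.5 and 51.7 CPM against 227 and 219 CPM (log2 difference -3.07 ± 0.23, adjusted p = 2.4e-39, edgeR, 1 residual degree of freedom and the same spread for all genes of like abundance). Trp53inp1 was higher in stromal cells, at 48.1 and 36.5 CPM against 10.3 and 19.9 CPM (1.06 ± 0.29, adjusted p = 0.000731), and Ccng1 (-1.15 ± 0.28) and Bbc3 (-0.81 ± 0.35) were lower. These 4 of 8 members stand against 49.9% of all genes. Total UMIs as scaling moved the median of all genes by 0.82: Cdkn1a (-2.25) and Trp53inp1 (1.89) kept their calls, Ccng1 (-0.33) and Bbc3 (0.02) lost theirs, and Phlda3 (0.74), Mdm2 (0.62) and Bax (0.47) became higher in stromal cells. DESeq2 called Cdkn1a alone, and the Bbc3 call was also lost without the low-count filter, at the 5% mitochondrial limit and after doublet removal.

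The few mutant stromal cells, 10 and 9, allow levels but no test. With stricter marker thresholds 1 cell remained in each mutant, against 941 and 45 in controls, and 17 and 10 mutant cells lay near the threshold, on either side of it. Phlda3 stood at 77.0 and 70.0 CPM in controls, and at 173 CPM (18 UMIs) and 256 CPM (27 UMIs) in mutants. Bax stood at 135 and 110 CPM in controls, and at 288 CPM (30 UMIs) and 266 CPM (28 UMIs) in mutants. Cdkn1a did not separate the genotypes, at 45.5, 51.7, 48.0 and 37.9 CPM. Summed stromal markers in these cells were 38476 and 33683 CPM in control and 13598 and 15300 CPM in mutant libraries, and progenitor-like bone markers at 1802 and 2051 CPM against 3966 and 3889 CPM; their part in these levels was not tested.

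The share of cells with a UMI gave the same order for Phlda3 in bone cells. With each cell thinned to 1000 UMIs, 3.96% (95% exact binomial interval 2.06 to 6.82) of control 1 and 4.26% (0.52 to 14.5) of control 2 bone cells held a Phlda3 UMI, against 12.1% (10.7 to 13.6) in mutant 1 and 14.1% (12.2 to 16.1) in mutant 2. Erythroid cells of the same libraries, at median depths of 22950, 31867.5, 12781 and 17912 UMIs, gave 0.674%, 0.869%, 0% (0 of 87 cells, an upper bound of 4.15%) and 0.455%. Unthinned, the bone shares were 56.1%, 40.4%, 77.5% and 66.6%. Median depths of these bone cells were 21240, 20978, 19640 and 17359.5 UMIs, lower in both mutants than in both controls. For Cdkn1a the thinned bone shares were 21.1%, 19.1%, 23.6% and 25.1%, with intervals that overlap. These intervals cover counting error only.

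The wider pathway was read from a list of 35 further p53 targets, 32 of them tested in bone cells. In the mutants 9 rose and none fell. The 6 with the smallest p were Ckap2, Aen, Psrc1, Gdf15, Xpc and Fdxr. The list's share called higher was 9 of 32 against 12.7% of all genes, and its median log2 difference 0.18 against 0.03. This list, too, was chosen with earlier results of these data known. Ckap2, a spindle-associated protein, gave the largest difference, with 4.09 and 1.81 CPM in the control and 22.2 and 20.8 CPM in the mutant libraries (2.51 ± 0.33, adjusted p = 8.57e-10, edgeR). Aen, an apoptosis-enhancing nuclease, gave 23.8 and 20.8 CPM against 49.4 and 63.3 CPM (1.15 ± 0.23, adjusted p = 6.92e-05). Gdf15, a secreted stress cytokine, gave 2.27 and 1.81 CPM against 8.37 and 4.81 CPM (1.69 ± 0.47), and Fdxr, the ferredoxin reductase of mitochondria, 4.39 and 5.42 CPM against 10.9 and 12.8 CPM (1.18 ± 0.34).

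The count for this list depended on the setting more than its direction did. It was 7 to 10 under the other scalings and cell filters, 4 without the batch term, 2 with DESeq2, and 0 without control 1, 1 without control 2 and 4 without either mutant, where all genes were called higher at only 0.0496% to 8.43%; without mutant 2, 1 gene of the list fell. In mature osteoblasts 2 of 19 rose (Aen and Rps27l), against 7.66% of all genes called higher. In endothelial cells 0 of 24 passed edgeR, against 2.18% called higher, and in erythroid cells 4 of 30 rose (Btg2, Ppm1d, Gadd45a and Ptp4a3), against 4.11%; these genes were named after their values were seen.

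Of the regulators of p53, 1 of 11 tested rose in bone cells (Rps26, a ribosomal protein) and none fell, against 12.7% and 9.95% of all genes called higher and lower. Trp53 itself stood at 38.3, 44.2, 33.7 and 41.4 CPM (-0.26 ± 0.22, adjusted p = 0.429, edgeR), and Mdm4, the partner of Mdm2, at 28.6, 28, 26.5 and 39.7 CPM (0.02 ± 0.23). Among 6 further inhibitors of cyclin-dependent kinases, Cdkn2b (2.35 ± 0.32) and Cdkn2d (0.92 ± 0.24) rose. Of the proliferation genes 10 of 15 rose, against 12.7% of all genes, among them Mki67 with 21.0 and 23.5 CPM in the control and 59.1 and 100.3 CPM in the mutant libraries. With stricter marker thresholds 3 of 15 rose and the list's median was 0.28 in place of 0.77; the count was 4 with DESeq2, 5 without the batch term, 6 after doublet removal and 0 to 6 when a library was left out (0 without control 1, 2 without control 2, 4 without mutant 1 and 6 without mutant 2). In mature osteoblasts 0 of 12 rose and 2, Mcm5 and Rrm2, fell, against 4.31% of all genes. Of 10 integrated stress response genes 1 rose (Ddit4) and 1 fell (Nupr1). Of 12 immediate early and heat-shock genes, which cell dissociation can induce, 3 rose (Hspa1a, Hspa1b and Nr4a1, the first 2 being near-identical copies that can share reads) and 2 fell (Fos and Fosb). Such calls were not confined to bone cells. In erythroid cells 3 of 4 kinase inhibitors and 5 of 15 proliferation genes rose. So did 4 of 10 stress response and 3 of 12 immediate early genes there, against 4.11% of all genes. In endothelial cells Ddit4 rose (1.04 ± 0.24) and Fos and Egr1 fell, against 5.14% of all genes called. No kinase inhibitor or proliferation gene was called there. The part of these lists in the differences of the members was not tested. Nor was that of the proliferation genes in the rise of the further p53 targets, Ckap2 among them.

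**Figure D5:**
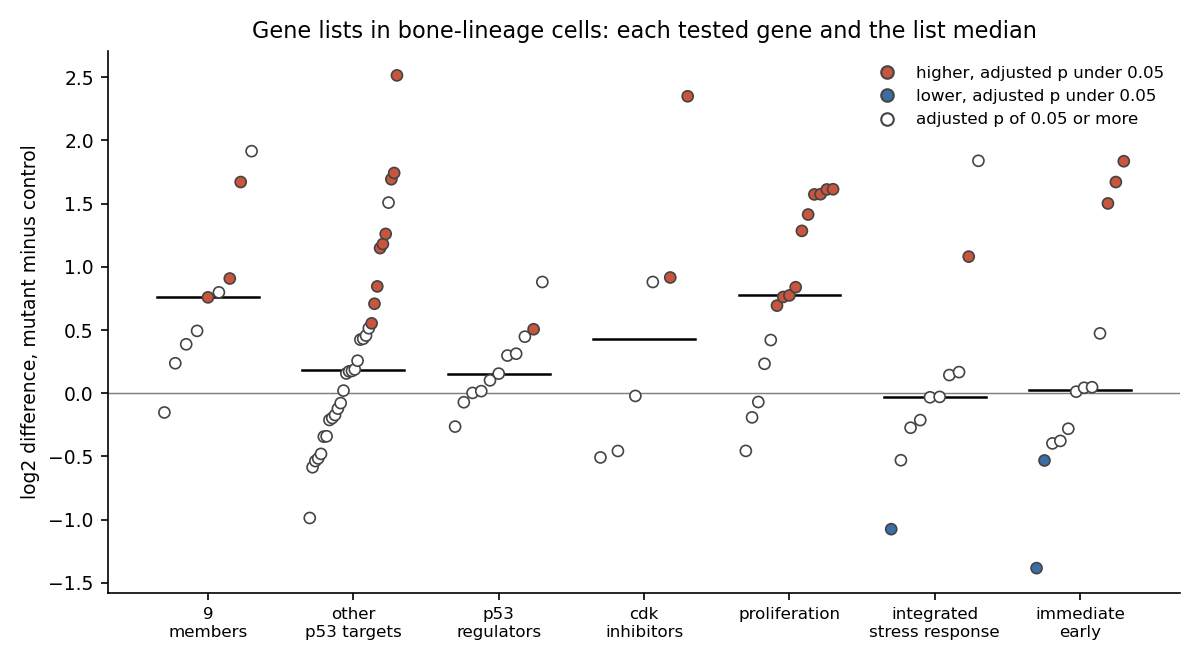
Log2 difference between mutant and control bone-lineage cells for each tested gene of 7 groups, with the group median as a bar; red and blue points have an adjusted p under 0.05. The 9 members have a median of 0.76 and proliferation genes of 0.77 (0.28 with stricter marker thresholds), while further p53 targets spread widely around a median of 0.18.

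Over 26 sums of class and library with at least 20 cells, the members did not vary as a block. Cdkn1a and Phlda3 were most alike, with a Pearson correlation of 0.83 of log2(CPM + 10), followed by Ccng1 and Bax at 0.69, while Trp53inp1 and Bax gave -0.25. These sums share libraries and depth, so the values are descriptions. Of 6148 other genes with a mean of at least 20 CPM, those most like Cdkn1a were Gprc5c (0.97), Ccn4 (0.96), Timp1 (0.95), Bambi (0.95), Pdgfa (0.94) and Metrnl (0.94). Those most like the mean profile of the 9 members were Ahdc1 (0.89), Rai1 (0.85), Zfp292 (0.83), Zfp451 (0.82), Nufip2 (0.82) and Plxnb2 (0.82).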

How the data were processed

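The authors deposited UMI counts, whole numbers for each gene in each barcode, and the file headers mark them as integers. The submitters' processing notes name mm10 and Cell Ranger, in version 5.0.1 for control 1 and mutant 1 (batch 1) and 6.1.2 for control 2 and mutant 2 (batch 2); the file headers name Cell Ranger 4 for all but mutant 1. In the order control 1, control 2, mutant 1, mutant 2 the files summed to 116863081, 114143361, 47390414 and 81890483 UMIs, of which 5808, 3635, 2628 and 4587 cells passed the filters. Cells were gated on summed markers per 10000 UMIs (bone at least 150 and 5 markers, stromal 100 and 4, endothelial 20 and 4, erythroid 10 and 3), with thresholds set after marker levels had been seen; 117, 5, 134 and 154 cells lay near the bone threshold. Doublets were kept in the main analysis.

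Sums per library were tested with edgeR 4.0.16 (TMM, filterByExpr, quasi-likelihood, batch and genotype as terms, 1 residual degree of freedom), with Benjamini-Hochberg adjustment over all tested genes and a threshold of 0.05. In these genotype fits edgeR drew each gene's spread largely from other genes. The prior degrees of freedom were 103.8 in bone cells, 27.1 in erythroid cells and 11.7 in mature osteoblasts, and infinite in endothelial cells. Standard errors were taken from the log2 difference and its F statistic. Interactions and class levels used the library as a term. DESeq2 1.42.0 and other settings were alternatives, and the scripts were tested on simulated data. The members and lists were chosen with earlier results of these data known. All members are named; of each list up to 6 genes called in bone cells per direction, by p, were to be named, with Trp53, Mdm4 and Mettl3, and for the 6 most alike profiles a Pearson correlation ranked the genes. Antisense or overlapping genes could share reads, since the counting settings are not given in the sources used here.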

Additional observations from a re-analysis of the deposited data

Results flagged for a closer look

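The genotype difference of Phlda3 in bone-lineage cells exceeded that in erythroid cells by 2.51 on the log2 scale, and that of Bax by 1.45, both past the threshold of the interaction test in edgeR.

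Outside cells, in barcodes of 10 to 100 UMIs of mutant 2, Phlda3 stood at 105 CPM, Cdkn1a at 176 CPM and Bax at 193 CPM. In control 1 and control 2 these barcodes gave 13.8 and 11.2 CPM for Phlda3, 40.5 and 9.33 CPM for Cdkn1a, and 111 and 155 CPM for Bax, and the counting interval of mutant 2 lay above those of both controls. Mutant 1 could not be read this way, since its file held called cells only. The reading thus rests on 1 mutant library, and the intervals cover counting error only. Bone cells made up 27.9% of kept cells in mutant 2, against 5.22% in control 1 and 1.29% in control 2. Erythroid cells made up 19.2% against 63.9% and 72.8%. The part of this make-up in the levels outside cells was not tested.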

How the results depend on the processing

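The batch term sets 1 control and 1 mutant library of the same batch against each other in the genotype fits, and its removal is among the alternatives; the labels give no replicate numbers, so no other pairing was fitted. Values under the alternatives were tallied for all members in bone cells. In the other comparisons only members that passed the threshold in some fit were tallied. Of these values, 502 kept direction and side of the threshold, 29 passed newly, 62 no longer passed and 18 changed sign. Scaling by total UMIs was added after seeing the data for all results, as were all alternatives for mature osteoblasts, class levels, stromal against bone and subtypes, and DESeq2, the mitochondrial limit and doublet removal for the interactions.

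The number of members called in bone cells (3) was 1 without the batch term and 0 to 1 when a library was left out. In endothelial cells (1) it was 0 with DESeq2, 0 without the batch term and 0 to 1 when a library was left out. In erythroid cells (1) it was 2 without the low-count filter, 0 without the batch term and 0 to 1 when a library was left out. In mature osteoblasts (1) it was 4 with DESeq2 size factors, 4 without the low-count filter, 4 at the 5% mitochondrial limit, 4 after doublet removal, 2 with total UMIs, 2 with stricter marker thresholds, 0 with DESeq2 and 0 to 1 when a library was left out. The interaction of bone and endothelial cells gave 1 with total UMIs; that of bone and erythroid cells (2) gave 1 with DESeq2 size factors, 1 with stricter thresholds and 0 to 2 when a library was left out. Levels of bone against endothelial cells (3) gave 1 with total UMIs, stromal against bone (4) gave 1 with DESeq2, and progenitor-like against mature cells (2) gave 7 with total UMIs and 1 to 3 when a library was left out. Thinning to 2000 UMIs keeps more UMIs per cell, so a gene is detected in more cells. It gave 14.5 percentage points for Phlda3 (8.99 at 1000) and 8.64 for Cdkn1a (4.18). Apart from this and from fewer samples in the fits without a library, the cause was not tested.

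Among the tallied values, signs changed for Mdm2 in bone cells (-0.29 to 0.12 when a library was left out). Between endothelial and erythroid cells Mdm2 was 0.011 with DESeq2 size factors, 0.0063 with DESeq2 and 0.60 with total UMIs, and Bax 0.32. Between stromal and bone cells total UMIs gave 0.62 for Mdm2, 0.74 for Phlda3, 0.47 for Bax and 0.017 for Bbc3. Between progenitor-like and mature cells total UMIs gave 0.64 for Mdm2, 0.46 for Ccng1 and 0.19 for Sesn2. There Mdm2 was 0.024 without the filter, 0.062 with stricter thresholds, 0.043 after doublet removal and -0.15 to 0.12 when a library was left out, and Bax -0.0086 to 0.16. No library could be left out of stromal against bone or of the subtype comparisons within 2 libraries, for want of residual degrees of freedom.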
